A study of Oryza sativa with 20 samples.

Results

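Of 6080 features on a rice cDNA microarray, 63 (1.04%) had higher signal in chilled than in control shoots both early and late in the first day at 10°C. A feature counted as up at a time point when its log2 ratio of chilled over control was 0.848 (1.8-fold) or more in both biological replicates. The 63 features were up at 0.5 h or 2 h and again at 12 h or 24 h, so the ratios of those 4 time points chose them and describe them here without a test. The slides of 6 h took no part in the choice, so the ratios at 6 h were tested. That test took its spread from all 10 samples, which include those of the rule.

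The plants were S3-stage seedlings of a single japonica cultivar that tolerates chilling, CT6748-8-CA-17, and the RNA came from their shoots. Chilled seedlings were held at 10°C for 0.5, 2, 6, 12 or 24 h under continuous light, and each chilled sample was compared on 1 slide with control seedlings kept at 29°C for the same time. There were 2 biological replicates per time point, giving 10 slides, and every feature was spotted as a pair on each slide, giving 20 deposited columns. Chilled RNA carried Cy3 and control RNA Cy5 on every slide according to the labels, so an effect of the dye on a feature and an effect of chilling cannot be told apart.

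Chilling of rice seedlings is known to slow photosynthesis and growth, to alter membranes and to raise reactive oxygen species, and the seedling answers in successive waves of gene expression. Fast genes typically encode signalling and regulatory proteins, and slower ones enzymes and protective proteins. Transcripts that are high in both windows belong to neither wave alone. Sucrose phosphate synthase makes the precursor of sucrose, which accumulates in many plants in the cold, and pyruvate decarboxylase opens the route from pyruvate to ethanol. Both enzymes had a feature among the 63.

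The platform annotation gave 1 gene to 52 of the 63 features, 2 genes to 2 and none to 9, and the 52 features represented 52 different genes. In the RefSeq annotation of the japonica genome (assembly ASM3414082v1) 50 of these genes were protein-coding and 2 were pseudogenes. Only 4 had a gene name there: OsSPS3F (LOC4341642, a sucrose phosphate synthase), PDC (LOC4339066, a pyruvate decarboxylase), BGLU19 (LOC4338556, a beta-glucosidase, which frees glucose from glycosides) and PRMT1 (LOC4346843, a protein arginine methyltransferase). The others are called here by their locus, and no function is assigned to them. LOC4345338 and LOC4345340 lay with 1 annotated gene between them, and LOC4350986 and LOC4350996 with 8 between them. The other loci had no second one of the 52 within 10 genes.

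Across all features the 2 replicates of a time point correlated with Pearson's r between 0.34 and 0.43 at 2, 6, 12 and 24 h, but with 0.07 at 0.5 h (a description across features, which are not independent). At 2 h the correlation was -0.43 as deposited, and replicate 2 was therefore used with its sign turned. Whether its dyes were exchanged or its ratio was inverted is not given in the sources used here. With the sign as deposited, 37 of the 63 features still met the rule, all of them through 0.5 h. The table used holds ratios and no absolute levels, so the shoot tissue could not be checked against marker genes, and in whole shoots a change within cells and a change in the mix of cells cannot be told apart.

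At 0.5 h 37 of the 63 features were up, beside 3.04% of all features. At 2 h 41 were up (2.49% of all features), at 12 h 22 (2.34%) and at 24 h 52 (3.35%). These counts follow in part from the rule. Of all features 277 (4.56%) were up at 0.5 h or 2 h and 306 (5.03%) at 12 h or 24 h, and the 63 shared features made up 22.7% of the former and 20.6% of the latter. Early in chilling, 22 of the 63 were up at 0.5 h only, 26 at 2 h only and 15 at both. Late, 41 were up at 24 h only, 11 at 12 h only and 11 at both. The most frequent combinations were 2 h with 24 h only (16 features) and 0.5 h with 24 h only (15 features). The highest mean of the 2 replicates lay at 24 h for 20 features, at 0.5 h for 19, at 6 h for 12, at 12 h for 10 and at 2 h for 2.

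**Figure D1:**
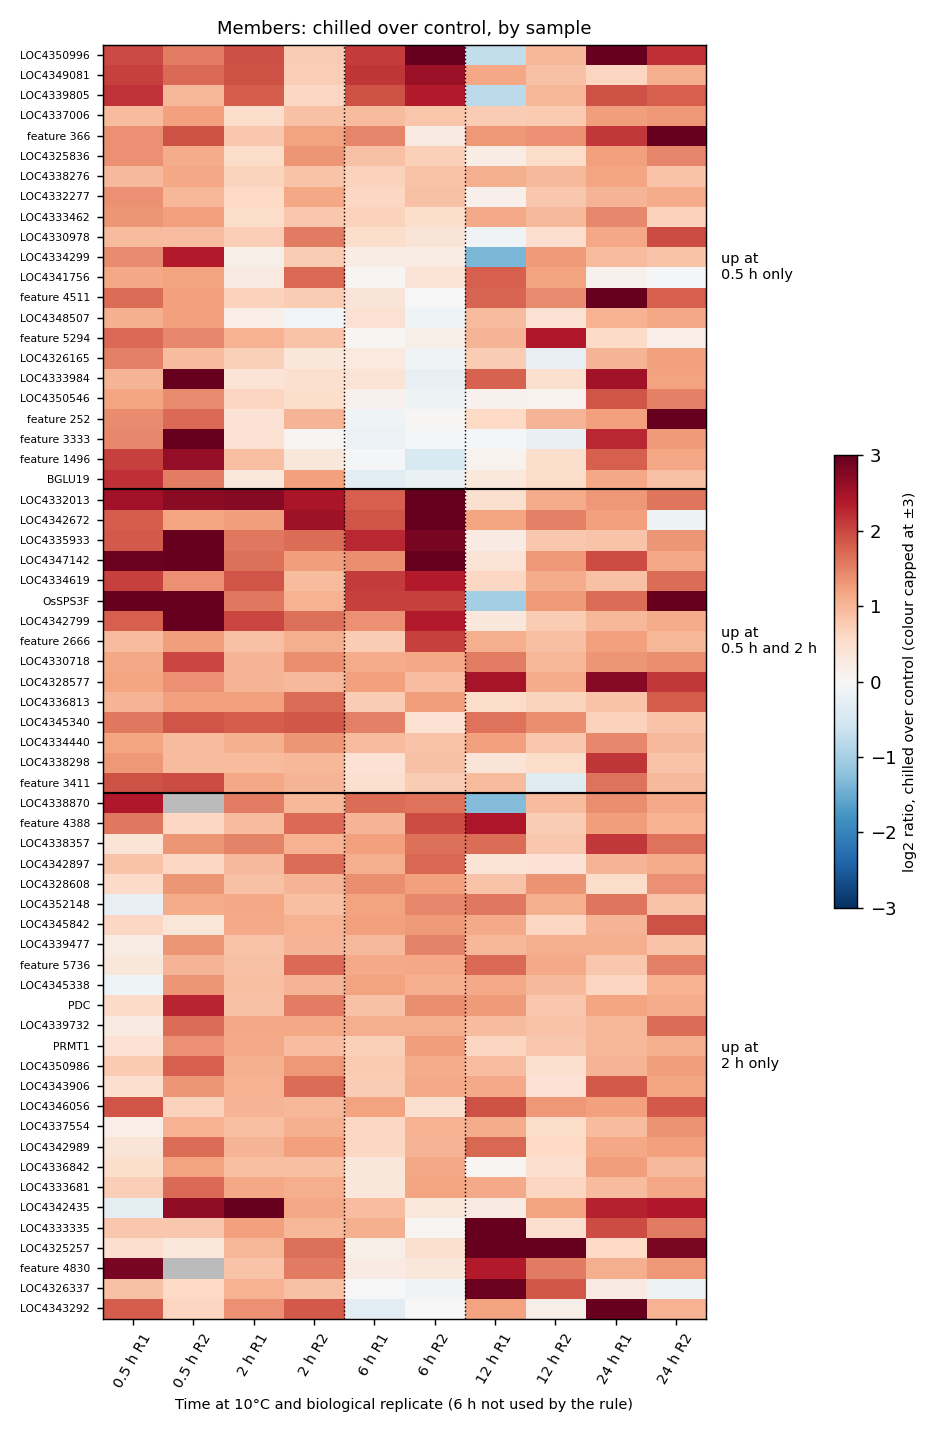
Heat map of the log2 ratio of chilled over control for the 63 features (rows, by gene name, locus or feature number) in the 10 biological samples (columns, R1 and R2 for the replicates). Rows are grouped by the early time at which the feature was up and ordered by the 6 h mean, grey cells have no value, dotted lines enclose the 6 h slides, and 7 rows are below 0 in replicate 1 at 12 h.

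OsSPS3F had the highest mean over the 8 samples of the rule, a log2 ratio of 2.15. Its log2 ratios in replicates 1 and 2 were 4.89 and 3.79 at 0.5 h, 1.59 and 1.05 at 2 h, 2.05 and 2.04 at 6 h, -1.02 and 1.27 at 12 h, and 1.67 and 3.96 at 24 h. It was thus high from 0.5 h to 6 h and at 24 h in both replicates, and its replicates lay on opposite sides of 0 at 12 h. The paired spots of this feature were far apart on several slides. At 0.5 h they read 7.74 and 2.03 in replicate 1 and 6.05 and 1.54 in replicate 2, at 12 h in replicate 1 they read 1.52 and -3.56, and at 24 h in replicate 2 they read 2.03 and 5.9. The mean at 6 h was 2.04 (n = 2), with an adjusted p of 0.226 in the limma test over all features. The SE in that test, 0.55, pools the spread within all 5 time points, here and for the genes below. With the 6 h slides alone, a fit on only 2 slides, the limma adjusted p was 0.0189. In the 12 other settings run, the limma adjusted p was not under 0.05. It was 0.0579 with the first spot set alone and 0.522 with the second.

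PDC had 2 features, of which only 1 was among the 63. The other was below 0 in 8 of 10 samples, with a mean of -0.36 over the 8 samples of the rule against 1.21. The feature among the 63 was above 0 in all 10 samples. Its log2 ratios were 0.58 and 2.29 at 0.5 h, 0.88 and 1.53 at 2 h, 0.88 and 1.4 at 6 h, 1.28 and 0.8 at 12 h, and 1.19 and 1.11 at 24 h. The replicates were furthest apart at 0.5 h, and the means changed little from 2 h on. At 6 h the mean was 1.14 (SE 0.37, limma adjusted p = 0.269).

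BGLU19 was up in both replicates at the first and the last time point only. Its log2 ratios were 2.2 and 1.54 at 0.5 h, 0.32 and 1.22 at 2 h, -0.35 and -0.19 at 6 h, 0.32 and 0.55 at 12 h, and 1.15 and 0.87 at 24 h. It was 1 of 3 features below 0 in both replicates at 6 h. PRMT1, whose product adds methyl groups to arginine residues of other proteins, had a narrow range instead. Its log2 ratios were 0.44 and 1.36 at 0.5 h, 1.13 and 0.92 at 2 h, 0.71 and 1.26 at 6 h, 0.64 and 0.8 at 12 h, and 0.99 and 1.1 at 24 h. All 10 samples were above 0.

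**Figure D2:**
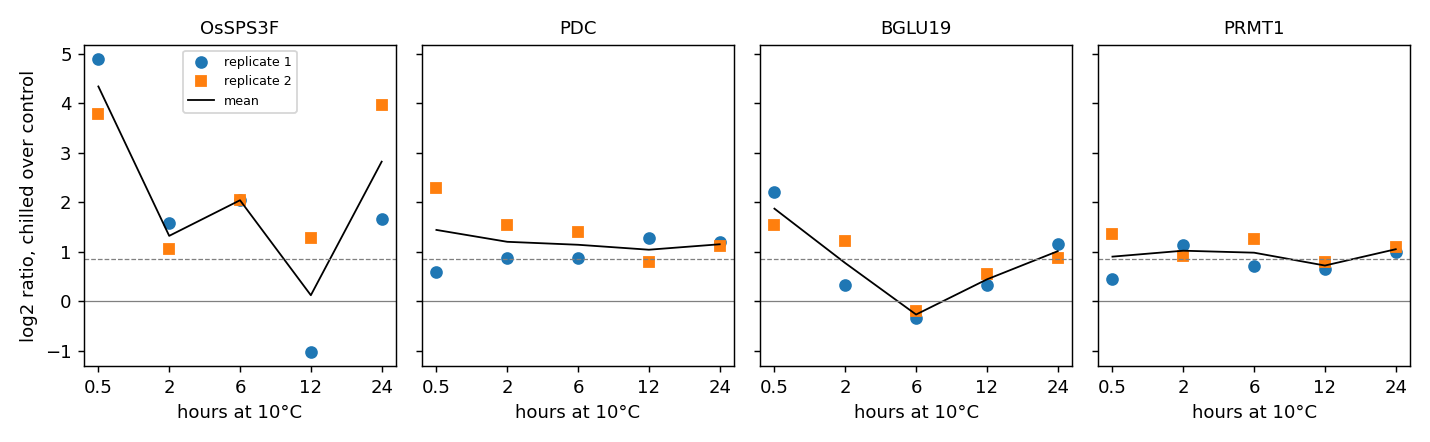
Log2 ratio of chilled over control (vertical axis) against hours at 10°C (horizontal axis, categories not to scale) for the 4 named genes, with circles for replicate 1, squares for replicate 2, a line through the means and a dashed line at 0.848. OsSPS3F spans -1.02 to 4.89, while PRMT1 stays between 0.44 and 1.36.

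The other named genes of these pathways on the array mostly showed smaller ratios at 6 h. Among 12 features of sucrose and starch genes, tested by limma at 6 h with the whole array, none rose and none fell, 11 had a mean above 0 and the median was 0.26, beside a median of 0.01 over all features. OsSPS3F was the only one of the 63 in this list. At the other time points, AMY1A (an alpha-amylase, which degrades starch) and OsSUS3 (a sucrose synthase, which can cleave sucrose) also reached 1.8-fold in both replicates, both at 24 h only. Their log2 ratios there were 0.93 and 0.94 for AMY1A and 1.62 and 0.86 for OsSUS3. OsSPS4F, another sucrose phosphate synthase, had log2 ratios of -0.22 and 0.48 at 6 h and -1.88 and 0 at 24 h. Of 17 features of glycolysis and fermentation genes none rose or fell at 6 h, 10 had a mean above 0 and the median was 0.1. With a median of 0.01, about as many of all features lay above 0 as below, so 10 of 17 is near their share. PDC was the only one of the 63 there. Both features of AD709 (LOC4348176), a member of the same list, reached 1.8-fold in both replicates at 12 h only, with log2 ratios of 2.66 and 1.02 and of 0.94 and 1.24. A second pyruvate decarboxylase locus, LOC4332519, had log2 ratios of -0.37 and 0.32 at 6 h and -0.62 and -0.84 at 24 h. No feature of the other 18 gene lists examined was among the 63. The lists were drawn from features with a gene name, which only 4 of the 63 had, beside 711 features on the whole array. Members without a name could not appear on any list, so their absence says nothing of their function.

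On the slides of 6 h the 63 features were mostly high as well. Their median log2 ratio was 0.88 in replicate 1 and 1.01 in replicate 2, and the median of their means was 0.88, beside 0.01 for all features. The means ran from -0.27 to 2.91. In both replicates 25 of the 63 (39.7%) reached 1.8-fold, beside 2.39% of all features. In both replicates 53 (84.1%) were above 0, beside 33.9% of all features.

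The limma test at 6 h could be run on 61 of the 63, since 2 lacked a value at 0.5 h in replicate 2. Of the 61, 3 rose, beside 4 of 5926 on the whole array (0.0675%), and none of either fell (0%). At an unadjusted p under 0.05, 41 of the 61 (67.2%) were higher, beside 9.82% of all features, and 0 were lower, beside 1.33%. The features that rose were LOC4349081, LOC4332013 and LOC4334619. The spread in this test was estimated over all 10 samples, 8 of which chose the features, so the p-values were not independent of the rule. In a limma fit to the 6 h slides alone, 71.4% of the 63 were higher at an unadjusted p under 0.05, beside 14.1% of all features.

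LOC4349081 had log2 ratios of 2.14 and 2.59 at 6 h, with a mean of 2.36 (SE 0.31, limma adjusted p = 0.0163). At the other times it read 2.04 and 1.7 at 0.5 h, 1.92 and 0.73 at 2 h, 1.15 and 0.88 at 12 h, and 0.64 and 1.09 at 24 h. All 10 samples were above 0, with the highest values from 0.5 h to 6 h. LOC4332013 had log2 ratios of 1.8 and 4.01 at 6 h, with a mean of 2.91 (SE 0.41, adjusted p = 0.0194). It read 2.52 and 2.7 at 0.5 h, 2.72 and 2.46 at 2 h, 0.48 and 1.11 at 12 h, and 1.3 and 1.61 at 24 h. In replicate 2 its value at 6 h came from a single spot. Its paired spots in that replicate were 1.29 and 4.1 at 0.5 h and 1.15 and 3.78 at 2 h. The limma adjusted p was 0.0751 with the first spot set alone and 0.0598 with the 6 h slides alone. LOC4334619 had 2.1 and 2.37 at 6 h, with a mean of 2.24 (SE 0.32, adjusted p = 0.0194). It read 2.06 and 1.38 at 0.5 h, 1.88 and 0.95 at 2 h, 0.62 and 1.11 at 12 h, and 0.89 and 1.68 at 24 h. Its limma adjusted p was 0.024 with the first spot set alone and 0.208 with the second. With the spot sets kept apart it was 0.19. All 3 were above 0 in every sample. None of these calls was made without replicate 2 of 6 h, with the replicate number as a block or with the level of neighbouring features or of the feature's EST series subtracted.

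**Figure D3:**
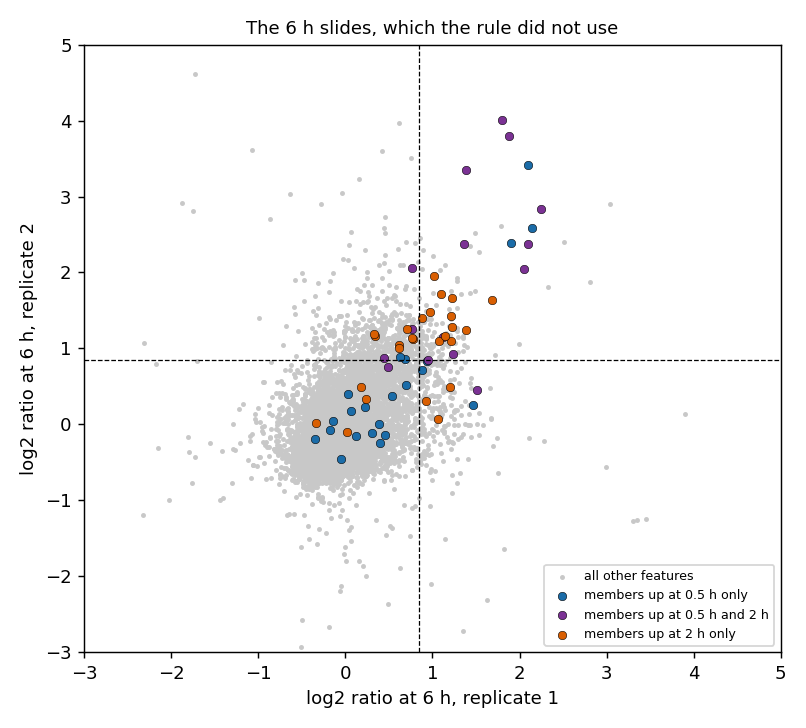
Log2 ratio of chilled over control at 6 h in replicate 1 (horizontal axis) and replicate 2 (vertical axis), with all other features in grey and the 63 coloured by the early time at which they were up. Dashed lines mark 0.848, 25 of the 63 lie above both, and 19 other features fall outside the axes, which run from -3 to 5.

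A small set stood out in size at 6 h. Of the 63, 9 (14.3%) had a mean of 2 or more on the log2 scale (4-fold), beside 19 of 6022 features with a mean (0.316%). They were the 3 that rose together with OsSPS3F, LOC4342672, LOC4350996, LOC4335933, LOC4347142 and LOC4339805, and they were grouped after their values had been seen. LOC4342672 (adjusted p = 0.0516) had log2 ratios of 1.88 and 3.8 at 6 h, LOC4350996 (0.0516) 2.1 and 3.41, LOC4335933 (0.0554) 2.25 and 2.84, and LOC4347142 (0.0554) 1.39 and 3.35. The 3.41 of LOC4350996 is the mean of spots at 1.7 and 5.11. The latter comes from the column whose source name gives another time than its title. Without that column the mean of LOC4350996 was 1.91 (limma adjusted p = 0.128), below 2. The value of LOC4339805 in replicate 2 at 6 h, 2.39, came from that column alone. LOC4342672 had 16 of 20 spots. Across the 9 the medians were 2.05 and 2.84 at 6 h, 0.41 and 1.11 at 12 h, and 1.3 and 1.61 at 24 h. Each of the 9 was lower in both replicates at 12 h than in either sample of 6 h, which picking them by a high 6 h mean favours. In replicate 1 at 12 h 3 of them were below 0.

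LOC4335933 and LOC4347142 from this set were spotted under consecutive feature numbers. LOC4335933 read 1.84 and 4.27 at 0.5 h, 1.58 and 1.68 at 2 h, 0.24 and 0.82 at 12 h, and 0.86 and 1.32 at 24 h. LOC4347142 read 2.93 and 3.35 at 0.5 h, 1.66 and 1.25 at 2 h, 0.41 and 1.29 at 12 h, and 1.96 and 1.15 at 24 h. Both had their lowest mean at 12 h. The values of both at 0.5 h in replicate 2 came from a single spot each.

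The ratio at 6 h differed with the early time at which a feature had been up. Of the 15 features up at both 0.5 h and 2 h, 10 reached 1.8-fold in both replicates at 6 h, with medians of 1.36 and 2.04, and all 15 were above 0 in both. Of the 26 up at 2 h only, 12 did so, with medians of 0.95 and 1.15, and 24 were above 0 in both. Of the 22 up at 0.5 h only, 3 did so, with medians of 0.43 and 0.25, and 14 were above 0 in both. The features up at 0.5 h only held most of those that were not above 0 in both replicates at 6 h. The difference between these groups was not tested, since features measured on the same slides are not independent of each other. At 0.5 h the 2 replicates of the whole array also correlated least.

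At 24 h the medians of the features up at 0.5 h only were 1.23 and 1.22, a level that the rule sets for most of them. Feature 3333, which has no single gene, is an example. Its log2 ratios were 1.45 and 3.11 at 0.5 h, 0.45 and 0.03 at 2 h, -0.18 and -0.07 at 6 h, -0.05 and -0.22 at 12 h, and 2.26 and 1.28 at 24 h. Its slide means were at 0.45 or lower at 2, 6 and 12 h and high at both ends. In replicate 2 both ends rest largely on 1 spot. The paired spots there were 0.57 and 5.65 at 0.5 h and 0.56 and 2.01 at 24 h. LOC4333984 read 1.01 and 3.08 at 0.5 h, 0.42 and 0.47 at 2 h, 0.4 and -0.24 at 6 h, 1.76 and 0.47 at 12 h, and 2.52 and 1.2 at 24 h.

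At the other extreme, 2 features were up at all 5 time points. LOC4328577 had log2 ratios of 1.19 and 1.37 at 0.5 h, 1.03 and 0.98 at 2 h, 1.24 and 0.93 at 6 h, 2.48 and 1.12 at 12 h, and 2.73 and 2.13 at 24 h. Its mean at 6 h was 1.08 (SE 0.32, limma adjusted p = 0.236). LOC4330718 had 1.16 and 2 at 0.5 h, 1.01 and 1.4 at 2 h, 1.12 and 1.15 at 6 h, 1.53 and 0.99 at 12 h, and 1.33 and 1.39 at 24 h, a range of 0.99 to 2 over the 10 samples. Its mean at 6 h was 1.14 (SE 0.28, adjusted p = 0.196). A further 12 features were up at 4 time points, 21 at 3 and 28 at 2. LOC4334440, up at all times but 12 h, ran only from 0.82 to 1.43. LOC4342799, also up at all times but 12 h, read 1.8 and 3.03 at 0.5 h and 2 and 1.65 at 2 h. It then read 1.36 and 2.38 at 6 h, 0.34 and 0.75 at 12 h, and 1 and 1.11 at 24 h. Its mean at 6 h was 1.87 (SE 0.33, limma adjusted p = 0.0607). Of the 63, 40 (63.5%) were above 0 in all 10 samples, beside 7.29% of all features with 10 values, and the rule itself required at least 4 of these samples to be high. A ratio that barely moves over time is also what a constant dye effect would give, and its part was not tested because no slide is labelled with the dyes exchanged.

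Some features had their highest ratio at 12 h. LOC4325257 had log2 ratios of 4.66 and 3.29 at 12 h, against 0.5 and 0.32 at 0.5 h, 1 and 1.66 at 2 h, 0.18 and 0.49 at 6 h, and 0.59 and 2.83 at 24 h. LOC4326337 had 2.95 and 1.86 at 12 h, against 0.87 and 0.6 at 0.5 h, 1.04 and 0.89 at 2 h, 0.02 and -0.1 at 6 h, and 0.26 and -0.16 at 24 h. Both replicates at 12 h were above all other samples of the feature in both cases, but the peaks rest in part on single spots. For LOC4325257 the spots at 12 h were 8.77 and 0.55 in replicate 1, and replicate 2 had 1 spot with a value. For LOC4326337 they were 2.67 and 3.23 in replicate 1 and 3.3 and 0.41 in replicate 2. LOC4333335 had 4.13 in replicate 1 at 12 h but 0.51 in replicate 2, so its value there rests on 1 slide. In replicate 1 at 12 h 7 features were below 0, and 6 of these were above 0 in replicate 2. LOC4334299 was the lowest of them, with -1.36 in replicate 1 and 1.27 in replicate 2.

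The highest ratios were often uneven between time points and replicates. LOC4342435 read -0.28 and 2.65 at 0.5 h, 3.33 and 1.16 at 2 h, 0.92 and 0.31 at 6 h, 0.24 and 1.21 at 12 h, and 2.32 and 2.41 at 24 h. LOC4343292 read 1.81 and 0.65 at 0.5 h, 1.38 and 1.84 at 2 h, -0.34 and 0.02 at 6 h, 1.21 and 0.17 at 12 h, and 3.5 and 1.04 at 24 h. LOC4345340 was steadier, with 1.59 and 1.89 at 0.5 h, 1.81 and 1.87 at 2 h, 1.51 and 0.45 at 6 h, 1.62 and 1.39 at 12 h, and 0.69 and 0.86 at 24 h. Its low value in replicate 2 at 6 h is the mean of spots at 2.05 and -1.15, and the latter comes from the column whose source name gives another time than its title. The mean at 6 h was 0.98 (limma adjusted p = 0.234) with that column and 1.78 (adjusted p = 0.0174) without it. On the same slide the paired spots of the 63 features differed by a median of 0.2 to 0.7, depending on the slide, beside 0.11 to 0.25 for all features. Of the 63, 44 had all 20 spots, and 15 met the rule in every one of the 4 spots at an early and at a late time.

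For 12 of the genes the array carried 14 further features, and none of these met the rule. Over the 8 samples of the rule all 14 lay below the feature that was chosen, which the choice favours, with a median of 0.29 against 1.12. On the slides of 6 h 9 of the 14 lay below it, the medians were 0.45 and 0.75, and 11 of the 14 were above 0. The second PDC feature had log2 ratios of 0.06 and -0.19 at 6 h, against 0.88 and 1.4 for the first. At the other times it read -1.09 and -0.05 at 0.5 h, -0.25 and -0.54 at 2 h, 0.32 and -0.29 at 12 h, and -0.34 and -0.65 at 24 h. The features of this gene thus lay on opposite sides of 0 in most samples.

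The pair of BGLU19 went the other way at 6 h, where the second feature had log2 ratios of 0.15 and 0.69. This second feature reached 1.8-fold in both replicates at no time. It read 0.6 and 0.91 at 0.5 h and -0.51 and 0.63 at 24 h. LOC4342672 had 1.88 and 3.8 at 6 h on its first feature and 0.47 and 0.12 on its second, which was above 0 in all 10 samples without reaching 1.8-fold. The second feature of LOC4346056 was below 0 in all 10 samples, with a mean of -0.81 over the 8 samples of the rule against 1.36 for the first. The second features of LOC4338357 were nearer, with means of 0.68 and 0.66 at 6 h against 1.44. Features assigned to 1 gene thus often had unlike ratios, and which transcript each cDNA detects is not given in the sources used here.

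**Figure D4:**
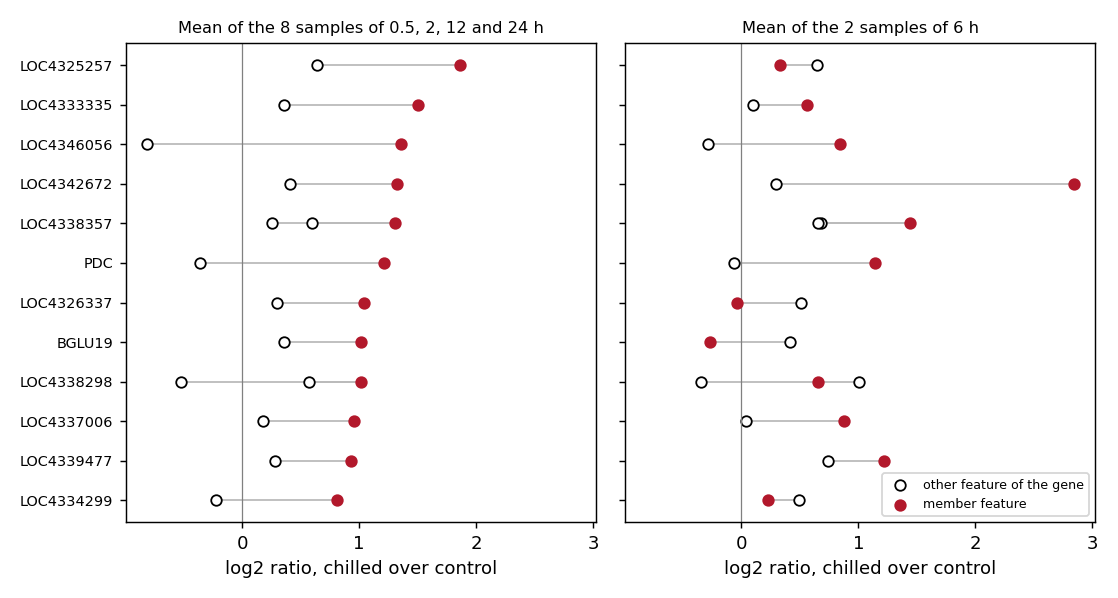
Mean log2 ratio of chilled over control (horizontal axis) of the chosen feature (filled) and the other features (open) of the 12 genes with more than 1 feature, over the 8 samples of the rule (left) and the 2 samples of 6 h (right). At 6 h 9 of the 14 other features lie to the left of the chosen one.

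The 63 features were unevenly spread over the array's cDNA collection. The array was built from a subtracted cDNA library of chilled rice seedlings and a normalised library of drought-stressed rice plants. Of the 54 with an EST accession in the platform annotation, 30 (55.6%) had one beginning with CA9, beside 16.4% of all features with an accession. A further 16 began with CA7 and 8 with CB0, beside 62.9% and 19.8%. The study's text places several cDNAs of the CA9 and CB0 series in the library of chilled seedlings. The library of each of the 63 was not looked up here.

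The features of the CA9 series as a whole were also shifted. In 8 of the 10 samples their median log2 ratio was above 0, at 0.33 and 0.57 on the 6 h slides, beside -0.04 and -0.13 for the CA7 series. At 0.5 h the CA9 median was -0.69 in replicate 1 and 0.44 in replicate 2. With the median of its own series on the same slide subtracted from every value, 55 features met the rule, 46 of them among the 63, and the median of the members' means at 6 h was 0.62. The 63 were also close together by feature number, with another of them within 20 numbers for 30 (47.6%), beside 30% of all features. Subtracting the median of the neighbouring 31 feature numbers left 55 features, 30 of them among the 63, and the median at 6 h was again 0.62. The part of these shifts in the ratios of single features was not tested further. What the feature numbers say of the position on the slide is not given in the sources used here.

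**Figure D5:**
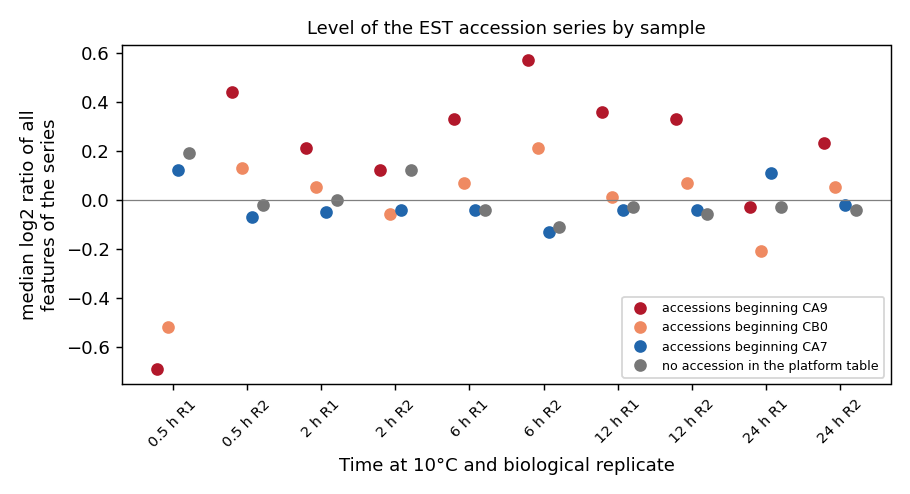
Median log2 ratio of chilled over control (vertical axis) over all features of an EST accession series, by biological sample (horizontal axis). The CA9 series lies between -0.69 and 0.57, and its 2 lowest samples are replicate 1 of 0.5 h and replicate 1 of 24 h.

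The edge of the group was not sharp. Just inside the rule were LOC4336813, whose deciding log2 ratio (the lower replicate at its best early or late time) was 0.85, LOC4334299 with 0.851 and LOC4339477 with 0.856. Just outside were feature 3048, which has no single gene, with 0.847, LOC4331320 with 0.843 and LOC4347103 with 0.839.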

How the data were processed

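The values deposited by the authors were log2 ratios, Cy3 (chilled) to Cy5 (control), of median intensities less local background from the Acuity software. The authors scaled the mean ratio to 1, but column medians as deposited ran from -0.63 to 0.26. Raw intensities were not used here. The deposited values had more rows, 6080, than the number of unique features that the study gives for the array. The extra rows were not identified, and the shares of all features include them. The number of slides limits the precision.

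Both columns of replicate 2 at 2 h were multiplied by -1, each column was set to a median of 0 and the 2 spots of a slide were averaged. Columns were assigned from the labels; the source name of 1 column (6 h, replicate 2, second spot set) gives another time than its title, and it was kept at 6 h. The mean at 6 h was tested against 0 with limma 3.58.1 (R 4.3.3), in a fit with a mean for each time point over 10 biological samples, and p-values were adjusted (Benjamini-Hochberg) over the 5926 features with 10 values. The test was checked on simulated data.

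Members and gene lists were chosen with earlier results of these data known. Chosen by rule for naming were up to 20 loci with the largest means over the 8 samples of the rule and those passing at 6 h. Up to 10 loci up at 4 or 5 time points and up to 2 per gene list were added. For some of these only part of the values is given. BGLU19, PRMT1, LOC4339805, LOC4332519, OsSPS4F, AMY1A, OsSUS3, AD709, LOC4326337, LOC4334299 and single features were singled out after their values were seen. Alternatives changed the sign, centring, spots, fold, replicates, prior and block. Promoter motifs and sequences were not analysed here.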

Additional observations from a re-analysis of the deposited data

How the results depend on the processing

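The rule was sensitive to its settings. Instead of 63 features, 37 met it with the sign of replicate 2 at 2 h as deposited, 145 without centring, 15 with all 4 spots required, 267 at 1.5-fold, 28 at 2-fold, 269 on the mean of the replicates, 41 with 2 h alone as the early time and 37 with 0.5 h alone. With 1 spot set alone, 76 features met it by the first set, 39 of them among the 63, and 58 by the second, 28 of them among the 63. Leaving out 1 slide of the rule gave 78 to 170. The members' median at 6 h, 0.88, was 0.62 with the local or the accession series median subtracted (both chosen after seeing the data) and 0.88 to 1.01 with 1 replicate left out. The 25 members at 1.8-fold at 6 h stayed within 1.5 times of that count in every setting run.

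The limma calls were few and fragile. Instead of 3 members, 8 rose without centring, with the 6 h slides alone and with a robust prior, 5 without the column whose labels conflict, 1 with the second spot set alone or the spot sets kept apart, and 0 with the replicate number as a block or with the local or series median subtracted. Without 1 slide 0 to 7 rose. Among all features, 4 in the main setting, the counts were 12 without centring and with the robust prior, 18 with the 6 h slides alone, 2 with either spot set, 1 with the local median, 0 with the replicate block or the series median, and 0 to 16 without 1 slide. Of the 23 members followed singly, 8 rose without centring and with the robust prior, and 6 with the 6 h slides alone. The count was 5 without the conflicting column, 1 with the second spot set or the spot sets kept apart, and 0 with the replicate block. It was also 0 with the local or the series median. All calls were lost without replicate 2 of 6 h. The replicate numbers were not taken as pairs, since only 5 of the 10 correlations of replicate differences between time points were over 0.1. They ran from -0.3 to 0.34, and those among 6, 12 and 24 h were 0.24 to 0.34. The block's lowest adjusted p was 0.0525.

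Among the 23 members followed singly, these turned sign at 6 h. LOC4343292 (-0.16) was at 0.32 with the second spot set, -0.34 to 0.02 with 1 replicate of 6 h left out and 0.12 with the local median subtracted. LOC4325257 (0.33) was at -0.08 without the conflicting column, LOC4333984 (0.08) at -0.24 to 0.4 with 1 replicate of 6 h left out and BGLU19 (-0.27) at 0.07 with the local median subtracted.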
